A study of Homo sapiens with 6 samples.

Results

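The genes examined were 33 genes of cholesterol synthesis and its control, measured in HK-2 cells with and without INO80 knockdown. They were chosen by name, as the rows of the deposited gene table whose symbol is one of the 33 fixed names, and each name had 1 row among the 57905 rows of the table. By role, 7 enzymes lead from acetyl-CoA to farnesyl diphosphate, 11 enzymes lead from squalene to cholesterol, 5 genes control the SREBP factors or transfer sterols, 7 genes make or desaturate fatty acids, and 3 genes belong to the arm of the sterol sensor LXR. All 33 were counted highly enough to be tested.

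Cells build cholesterol from acetyl-CoA through mevalonate, farnesyl diphosphate, squalene and lanosterol. The genes of this route are switched on together by the SREBP transcription factors, which are made as precursors in the membrane of the endoplasmic reticulum. When sterols are scarce, the escort protein SCAP carries SREBP to the Golgi, where proteases release the active factor, and when sterols are plentiful the INSIG proteins hold SCAP back. SREBF2 codes for the form that mainly serves cholesterol genes and SREBF1 for the forms that mainly serve fatty acid genes. LXR works in the other direction, since oxysterols activate it to raise genes that move cholesterol out of the cell. The proximal tubule, from which HK-2 cells derive, reabsorbs filtered proteins and nutrients and uses fatty acids as a main fuel.

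HK-2 (Human Kidney-2) cells are an immortalized line from the proximal tubule of a human kidney. In 3 libraries the cells, labelled wild type, had received a non-targeting control siRNA pool, and in 3 libraries a siRNA pool against INO80, the ATPase of a complex that moves nucleosomes. Both groups were transfected with RNAiMAX and harvested after 48 h, and poly-A RNA was sequenced. The labels number the libraries 1 to 3 in each group and do not say whether they came from separate cultures. The p-values therefore measure the spread between these libraries, which may be technical. With the replicate block described below, they measure the spread that remains once same-numbered libraries are matched, which may be technical too.

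Counts on genes totalled 16829273 to 20311588 per library under control siRNA and 20678008 to 23784599 under INO80 siRNA, and library 1 had the lowest total of its group in both. INO80 itself was at 46.3, 49.3 and 54 CPM (counts scaled by TMM to a common library total) in control siRNA libraries 1, 2 and 3, and at 13.8, 12 and 14.2 CPM under INO80 siRNA, a log2 fold change of -1.90 (adjusted p = 1.61e-04, edgeR). Of 9 proximal tubule markers, 8 had a single row and 3 were counted highly enough to be tested. GGT1 was at 143 to 191 CPM over the 6 libraries, while the defining markers SLC22A6 and LRP2 were absent or nearly so, with 0 reads in every library for SLC22A6 and 1 read in all for LRP2. The summed level of 5 epithelial markers was 1181 to 1257 CPM under control siRNA and 1079 to 1286 CPM under INO80 siRNA. KRT19 and KRT8 were the highest of the 5, at means of 523 and 443 CPM under control siRNA. CDH1 was nearly absent, with 0 to 10 counts per library, and was not tested. With the replicate block described below, KRT18 was higher and KRT19 and EPCAM were lower among the 5, against 11.4% and 13.4% of all genes. Their log2 fold changes were 0.19, -0.23 and -0.31 (adjusted p = 0.00102, 2.32e-04 and 3.71e-06 with the block, edgeR). Without the block their adjusted p was 0.410, 0.671 and 0.114 (edgeR). Endothelial markers summed to at most 0.147 CPM and leukocyte markers to at most 0.930 CPM, and 4 of 5 fibroblast markers were under 1 CPM on average, the exception being COL1A1. COL1A1 was at 47, 39.6 and 40 CPM under control siRNA and 60.9, 44.9 and 53.4 CPM under INO80 siRNA, higher in 3 of 3 pairs of same-numbered libraries (log2 fold change 0.32, adjusted p = 1.02e-04 with the block and 0.214 without it, edgeR). The fibroblast markers summed to 41.0 to 47.8 CPM under control siRNA and 46.4 to 61.6 CPM under INO80 siRNA. The part of these markers in the results was not tested. In bulk RNA, fewer cells of a type and less RNA per cell cannot be told apart.

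The genes spanned a wide range of levels. Levels between genes were compared in FPKM, the deposited unit that divides the count by gene length and library total. ACLY, which makes cytosolic acetyl-CoA from citrate, was the highest under control siRNA at 127 ± 3.58 FPKM (SD, n = 3), and SCD, the stearoyl-CoA desaturase, was next at 123 ± 5.89 FPKM (SD, n = 3). Their libraries overlapped, so the order of these neighbours was not separated from the spread. INSIG1, which holds SCAP in the endoplasmic reticulum, followed at 108 ± 12.8 FPKM (SD, n = 3). Among the 18 enzymes from acetyl-CoA to cholesterol, EBP, the sterol isomerase, was the highest at 49.7 ± 2.86 FPKM and TM7SF2, a sterol reductase, was the lowest at 0.633 ± 0.106 FPKM (SD, n = 3 each). The plot of levels by library shows the whole order.

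**Figure D1:**
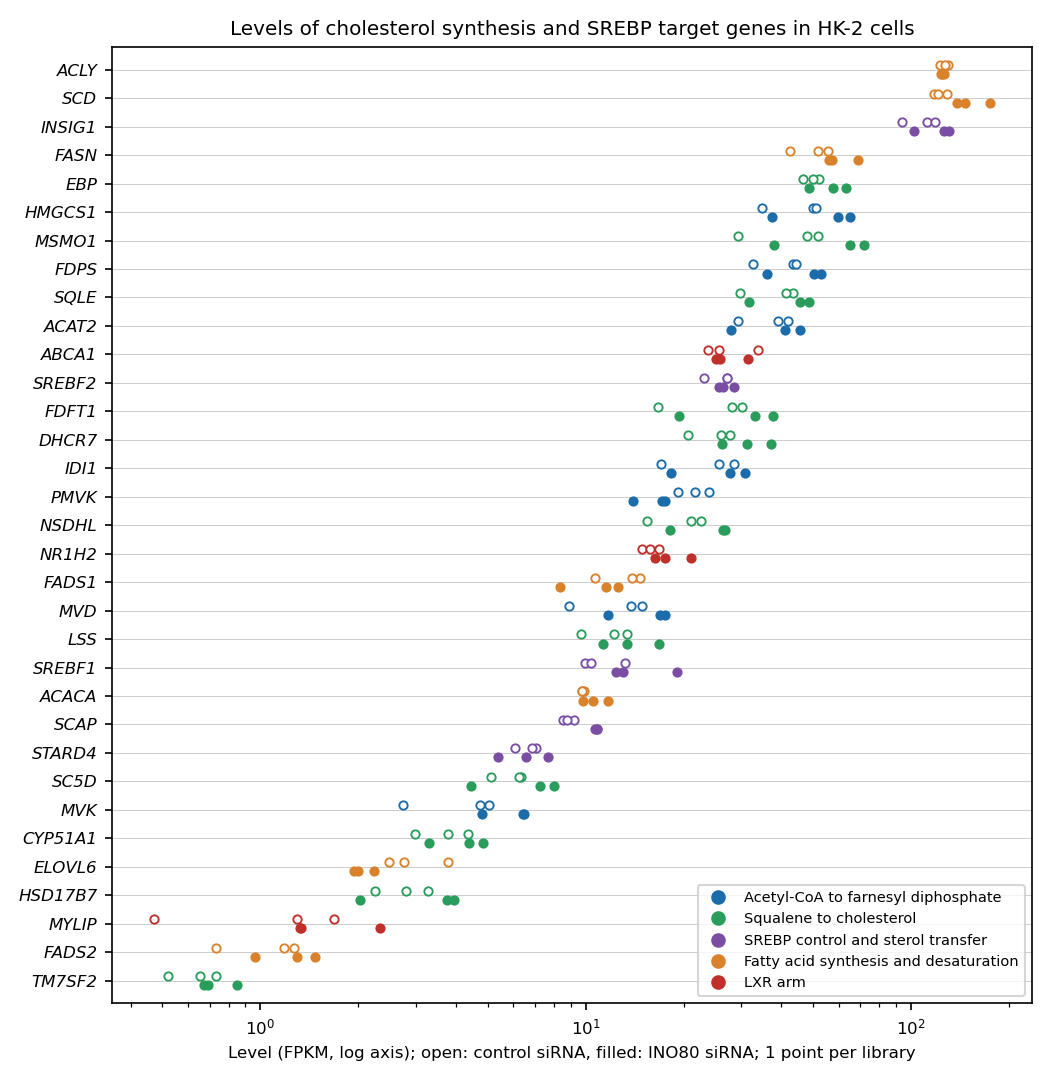
Levels of the 33 genes in FPKM on a log axis, with 1 point per library (open, control siRNA; filled, INO80 siRNA), ordered by the mean under control siRNA and coloured by role. ACLY and SCD stand at the top at a mean of 127 and 123 FPKM, TM7SF2 stands at the bottom at a mean of 0.633 FPKM, and for most genes the points of both groups overlap.

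The first question was whether any of these genes changed under INO80 siRNA, with the 2 groups compared by edgeR's quasi-likelihood test and p-values adjusted over all 15343 genes tested by the Benjamini-Hochberg method. With the treatment alone in the model, 0 of the 33 genes had an adjusted p under 0.05, where 1.75% of all genes tested had one. An unadjusted p under 0.05 was reached by 7 of the 33 (MVK, PMVK, DHCR7, SCAP, FASN, SCD and ELOVL6), against 16.4% of all genes. On the same counts without a block, DESeq2 gave an adjusted p under 0.05 for 4 of the 33 (PMVK, SCAP, SCD and ELOVL6), where it did so for 4.58% of its genes. edgeR without the filter on low counts gave 9 of the 33 (MVK, PMVK, MSMO1, DHCR7, SREBF1, SCAP, FASN, SCD and ELOVL6) against 2.43% of its genes. limma gave 0 of the 33 on log2(FPKM + 0.1), against 0.417% of its genes, and 0 on log2(FPKM + 1), against 0.305%. The number called among these genes thus differed with the filter on low counts and between edgeR and DESeq2.

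The values in single libraries showed 2 patterns at once. Library 1 of both groups was low for nearly every enzyme of cholesterol synthesis, and within each pair of same-numbered libraries the INO80 siRNA library was mostly the higher one. Libraries with the same number deviated together across the genes tested, so the number was taken to pair them, and a fit with the number as a block (the replicate block) was set beside the fit without it. With the block, 21 of the 33 genes had an adjusted p under 0.05, against 24.8% of all genes. Of these, 18 were higher under INO80 siRNA, against 11.4% of all genes, and 3 were lower, against 13.4% of all genes. DESeq2 with the block called 18 of the 32 genes to which it gave an adjusted p, against 13.9% of its genes. Over 7 fits with the block, which changed the tool or the scaling or left out a pair, 17 of the 33 genes were called in each, against 9.65% of all genes. The study names no pairing, so the fit without the block, which called 0 of the 33 genes, was planned as the main one. In what follows, higher or lower describes the fit with the block, an alternative. For genes called in it, the adjusted p without the block stands beside it.

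Counting pairs gave a like picture without a model. In 3 of 3 pairs, 21 of the 33 genes were higher in the INO80 siRNA library, where 26.8% of all genes tested were. PMVK, FADS1 and ELOVL6 were lower in 3 of 3 pairs, where 25.9% of all genes were. Without regard to pairs, the 3 INO80 siRNA libraries all stood above the 3 control siRNA libraries for SCAP and SCD, where 11.3% of all genes did so, and all stood below them for PMVK and ELOVL6, where 11.5% of all genes did so. The exact two-sided permutation test on these genes gave p = 0.1, the smallest that 3 libraries against 3 allow. The median log2 fold change without the block was 0.20 over the 33 genes, 27 of them above 0, and 0.01 over all genes tested. Of all 15343 genes tested, 7901 were above 0. The median standard error over the 33 genes was 0.160 without the block and 0.0436 with it, and over all genes it was 0.117 and 0.0756. The shares over all genes were not matched to the 33 genes for level or standard error.

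**Figure D2:**
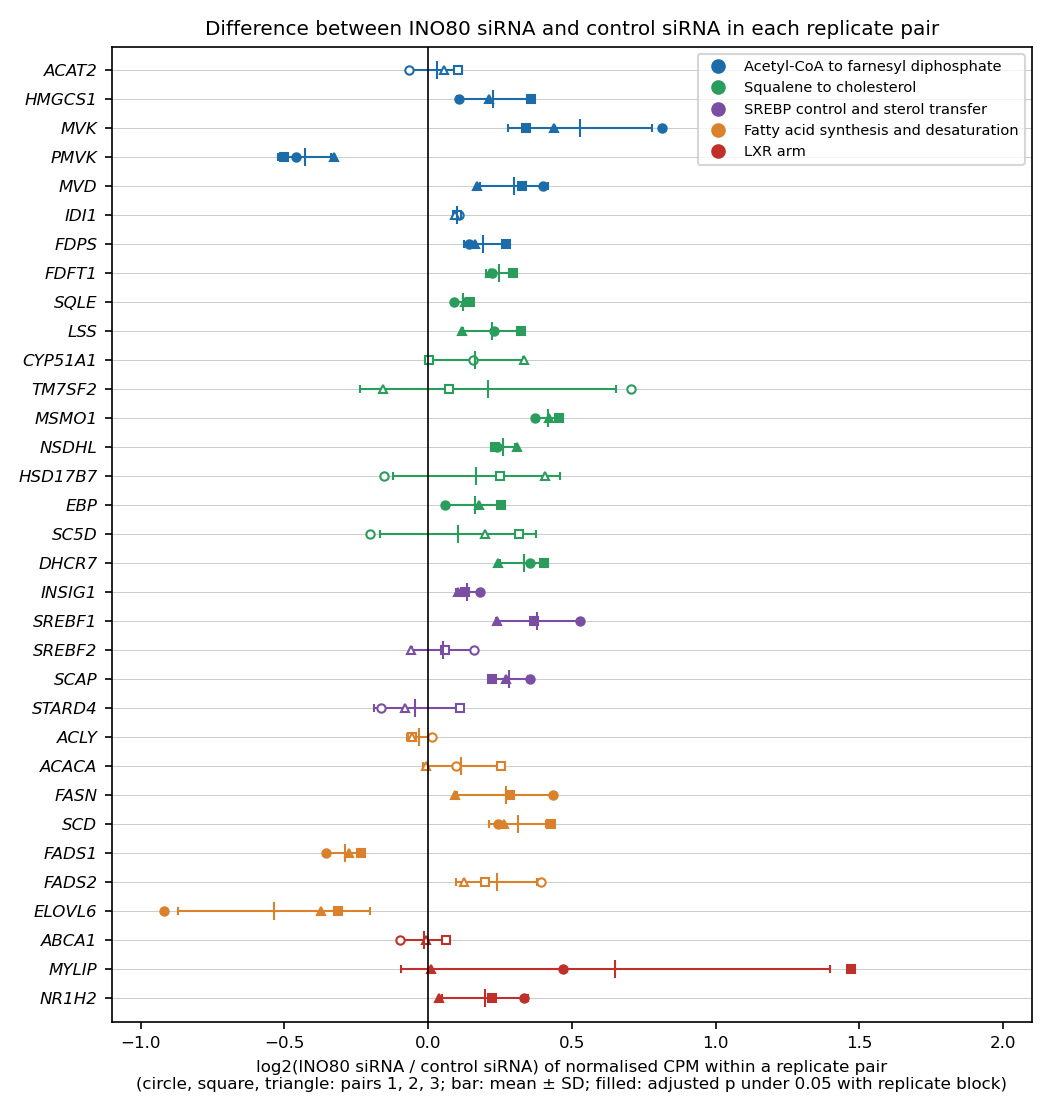
Log2 ratio of INO80 siRNA to control siRNA in normalised CPM within each replicate pair (circle, square and triangle for pairs 1, 2 and 3), with the mean and SD of the 3 pairs, for the 33 genes coloured by role. Filled points mark the 21 genes with an adjusted p under 0.05 with the replicate block, of which 18 lie to the right of 0 and PMVK, FADS1 and ELOVL6 lie to the left.

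Among the 7 enzymes from acetyl-CoA to farnesyl diphosphate, 4 were higher and 1 was lower with the block. The shares over all genes were 11.4% and 13.4%. From here on, CPM values are those of control siRNA libraries 1, 2 and 3 and then of INO80 siRNA libraries 1, 2 and 3. HMGCS1, which condenses acetyl-CoA and acetoacetyl-CoA to HMG-CoA, was at 168, 234 and 238 CPM in control siRNA libraries 1, 2 and 3 and at 181, 300.2 and 276 CPM under INO80 siRNA. Each INO80 siRNA library was above the control library of its number, although the groups overlapped through library 1, giving a log2 fold change of 0.23 with a standard error of 0.0401 (adjusted p = 1.07e-04, edgeR with the block; 0.600 without it). MVK, mevalonate kinase (ENSG00000110921, chromosome 12, 110011060 to 110035067, plus strand, GRCh37), was at 15.8, 28.1 and 26.3 CPM under control siRNA and 27.8, 35.5 and 35.6 CPM under INO80 siRNA. Control library 1 was far below all others, the largest difference was in pair 1, and the log2 fold change of 0.50 (standard error 0.0747) had an adjusted p of 1.63e-05 with the block and 0.270 without it (edgeR). The span of MVK overlaps that of MMAB on the other strand, whose log2 fold change was 0.36 (adjusted p = 3.12e-04 with the block, 0.388 without it, edgeR), and whether the counting used strand is not stated.

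PMVK, phosphomevalonate kinase (ENSG00000163344, chromosome 1, 154897210 to 154909467, minus strand, GRCh37), catalyses the step after MVK and went the other way. It was at 25.2, 30.5 and 27.6 CPM under control siRNA and at 18.4, 21.6 and 22 CPM under INO80 siRNA. Every INO80 siRNA library was below every control siRNA library, giving a log2 fold change of -0.43 with a standard error of 0.0699 (adjusted p = 4.73e-05 with the block, 0.0913 without it, edgeR). MVD, the decarboxylase that yields isopentenyl diphosphate, was at 43.1, 64.7 and 69.6 CPM and at 56.9, 81.2 and 78.3 CPM, and was higher in every pair (adjusted p = 1.10e-04 with the block, 0.505 without it, edgeR). FDPS, farnesyl diphosphate synthase, was at 125, 161 and 164 CPM and at 138, 194 and 184 CPM, with pair differences of 0.14, 0.27 and 0.16 on the log2 scale (adjusted p = 4.82e-04 with the block, 0.556 without it, edgeR). IDI1, the isopentenyl diphosphate isomerase, was at 62.8, 102 and 91.7 CPM and at 67.6, 109 and 97.8 CPM. It had nearly equal pair differences of 0.11, 0.10 and 0.09 and did not pass the test (adjusted p = 0.0939 with the block, 0.864 without it, edgeR). ACAT2, which makes acetoacetyl-CoA, was at 132, 182 and 169 CPM and 126, 196 and 176 CPM, and its pairs disagreed in sign (adjusted p = 0.578 with the block, 0.936 without it, edgeR). The end of its span overlaps that of TCP1, and its span also overlaps that of SOD2, both on the other strand and counted more highly. Whether the counting used strand is not stated, so its count is uncertain.

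All 11 enzymes from squalene to cholesterol had a log2 fold change above 0 without the block, as did 7901 of all 15343 genes tested. The 11 had a median of 0.21 and a range of 0.13 to 0.42. With the block 7 of them were higher, against 11.4% of all genes. MSMO1, the methylsterol monooxygenase (ENSG00000052802, chromosome 4, 166248775 to 166264312, plus strand, GRCh37), was at 87.6, 149 and 138 CPM under control siRNA and 113, 204 and 185 CPM under INO80 siRNA. Its pairs differed by 0.37, 0.46 and 0.42 on the log2 scale, close to each other, while library 1 was low in both groups. The log2 fold change was 0.42 (standard error 0.0386), an increase of 33.7%, with an adjusted p of 7.84e-09 with the block and 0.438 without it (edgeR). DHCR7 (ENSG00000172893, chromosome 11, 71139239 to 71163914, minus strand, GRCh37), the last reductase of a branch of the pathway, was at 88.1, 115 and 108 CPM and 113, 152 and 128 CPM. Every pair rose, by 0.35, 0.40 and 0.24 on the log2 scale (adjusted p = 1.26e-06 with the block, 0.235 without it, edgeR). Without the block, no adjusted p of the 11 enzymes was below that of DHCR7.

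FDFT1, the squalene synthase, was at 89, 157 and 146 CPM and at 104, 192 and 169.6 CPM. Library 1 was lower than the others by more than the groups differed, and the pairs still agreed within 0.22 to 0.29 on the log2 scale (adjusted p = 2.96e-05 with the block, 0.687 without it, edgeR). SQLE, the squalene epoxidase that LSS follows, was at 132, 186 and 177 CPM and at 141, 205 and 193 CPM, an increase of 8.97% (adjusted p = 0.0139 with the block, 0.761 without it, edgeR). The call of SQLE held in 4 of the 7 fits with the block and was lost without pair 2 (adjusted p = 0.167, edgeR), without pair 3 (0.134, edgeR) and in DESeq2 (0.0964). LSS, which closes the sterol rings to give lanosterol, was at 71.7, 96.1 and 87.9 CPM and at 84.1, 120.2 and 95.4 CPM (adjusted p = 5.67e-04 with the block, 0.486 without it, edgeR). NSDHL, which acts with MSMO1 in removing methyl groups, was at 31.5, 44.9 and 41.9 CPM and at 37.2, 52.8 and 51.8 CPM, and its pairs differed by 0.24, 0.23 and 0.31 (adjusted p = 7.93e-04 with the block, 0.480 without it, edgeR). EBP was at 115, 125 and 120.2 CPM and at 120.1, 149.6 and 136 CPM, with a small pair difference in pair 1 (adjusted p = 0.00416 with the block, 0.370 without it, edgeR), and its call was lost without pair 2 (adjusted p = 0.150, edgeR) and without pair 3 (0.0553, edgeR).

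The other 4 enzymes of this stretch did not pass the test over all 6 libraries with or without the block. CYP51A1, the lanosterol demethylase, was at 12.4, 17.6 and 15.3 CPM under control siRNA and 13.9, 17.6 and 19.3 CPM under INO80 siRNA, and its 3 pairs differed by 0.16, 0.00 and 0.33 (adjusted p = 0.188 with the block, edgeR). HSD17B7, the ketoreductase that acts with NSDHL, was at 9.51, 13.4 and 11.5 CPM and 8.56, 15.9 and 15.2 CPM, lower in pair 1 and higher in the others (adjusted p = 0.164 with the block, edgeR). Reads of both genes can be split with their pseudogenes, which had mean counts of up to 26.5 for CYP51A1P2 and 68.3 for HSD17B7P2. SC5D, the sterol desaturase, was at 29.3, 35.1 and 34.6 CPM and 25.5, 43.6 and 39.7 CPM, again lower in pair 1 alone (adjusted p = 0.210 with the block, edgeR). HSD17B7 and SC5D were called higher with the block once pair 1 was left out, the former with a log2 fold change of 0.32 (adjusted p = 0.0117, edgeR) and the latter with 0.25 (adjusted p = 0.00074, edgeR). TM7SF2 had only 30 to 60 counts per library, and the pair differences of 0.71, 0.07 and -0.16 show no common direction. Its log2 fold change with the block was 0.19 with a standard error of 0.222 (adjusted p = 0.597, edgeR), and its span also overlaps that of VPS51.

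Of the 5 genes of SREBP control and sterol transfer, 3 were higher with the block and 0 were lower. The shares over all genes were 11.4% and 13.4%. SCAP, the escort of SREBP (ENSG00000114650, chromosome 3, 47455203 to 47518616, minus strand, GRCh37), was at 54.8, 57.4 and 54.6 CPM under control siRNA and 70, 67 and 65.9 CPM under INO80 siRNA. The libraries of each group lay close together and the groups did not overlap. The log2 fold change was 0.28 (standard error 0.0489), an increase of 21.4%, with an adjusted p of 1.11e-04 with the block and 0.0573 without it (edgeR), the lowest of the 33 genes without the block. SREBF1 (ENSG00000072310, chromosome 17, 17713713 to 17740325, minus strand, GRCh37) was at 109, 79.7 and 83.1 CPM and 158, 103 and 98.1 CPM. Here library 1 was the highest of its group in both groups, and every pair was higher under INO80 siRNA, by 0.53, 0.37 and 0.24 on the log2 scale (adjusted p = 9.53e-07 with the block, 0.351 without it, edgeR). The span of SREBF1 overlaps that of RAI1 on the other strand, whose log2 fold change was 0.22 (adjusted p = 0.00232 with the block, 0.187 without it, edgeR).

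SREBF2, whose product serves the cholesterol genes, was at 179, 203 and 204 CPM and 199.7, 212 and 196 CPM. Its groups overlapped and its log2 fold change of 0.05 (standard error 0.0394) had an adjusted p of 0.392 with the block and 0.778 without it (edgeR). Its RNA was thus not shown to differ in either fit. Of the 18 cholesterol synthesis enzymes, 11 were called higher with the block, against 11.4% of all genes. Without it 0 of the 18 were called, against 1.75% of all genes. INSIG1 was at 420.3, 430.3 and 341 CPM and 476, 470.0 and 366 CPM, with pair differences of 0.18, 0.13 and 0.10 (adjusted p = 0.00295 with the block, 0.632 without it, edgeR). Library 3 was the lowest of both groups for this gene. STARD4, a cytosolic sterol carrier, was at 35.4, 39.7 and 38.7 CPM and 31.5, 42.9 and 36.6 CPM with pairs of both signs (adjusted p = 0.720 with the block, edgeR).

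The 7 genes of fatty acid synthesis and desaturation did not move one way, since 2 were higher and 2 were lower with the block. The shares over all genes were 11.4% and 13.4%. SCD (ENSG00000099194, chromosome 10, 102106881 to 102124591, plus strand, GRCh37), which puts the first double bond into fatty acids, was at 648, 689 and 646 CPM under control siRNA and 767, 925 and 774 CPM under INO80 siRNA. The groups did not overlap, and the increase of 24.1% had an adjusted p of 2.15e-07 with the block and 0.102 without it (edgeR). FASN, the fatty acid synthase, was at 392, 498 and 462 CPM and 530.2, 606 and 493 CPM, with pair differences that ranged from 0.09 to 0.43 (adjusted p = 2.87e-05 with the block, 0.248 without it, edgeR). FADS1, which makes polyunsaturated fatty acids (ENSG00000149485, chromosome 11, 61567099 to 61596790, minus strand, GRCh37), was at 112, 149 and 141 CPM and 87.8, 127 and 116 CPM. It was lower in each pair, with log2 differences of -0.35, -0.24 and -0.28, although library 1 was low in both groups as for the sterol enzymes (adjusted p = 7.37e-06 with the block, 0.391 without it, edgeR).

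ELOVL6 (ENSG00000170522, chromosome 4, 110967002 to 111120355, minus strand, GRCh37), which lengthens saturated fatty acids, was at 28.2, 20 and 17.9 CPM and 14.9, 16.1 and 13.9 CPM. All INO80 siRNA libraries were below all control siRNA libraries, and pair 1, at -0.92, differed most. Its log2 fold change of -0.53 (standard error 0.0949) had an adjusted p of 1.36e-04 with the block and 0.143 without it (edgeR). The size rested in part on library 1, since the log2 fold change was -0.35 with the block without pair 1 (adjusted p = 0.00206, edgeR) and -0.34 without control siRNA library 1 and without the block (adjusted p = 0.217, edgeR). ACLY was at 659, 675 and 662 CPM and 664, 648 and 636 CPM and ACACA, the acetyl-CoA carboxylase, was at 140.0, 133 and 134 CPM and 149.6, 159 and 133 CPM. Neither passed the test with the block (adjusted p = 0.487 for ACLY and 0.0553 for ACACA, edgeR). ACACA was called higher in 3 of the 7 fits with the block, with an adjusted p of 0.00629 without pair 1 and 0.0275 without pair 3 (edgeR). FADS2, a neighbour of FADS1 whose span overlaps both FADS1 and FEN1, was at 8.29, 14 and 12.9 CPM and 10.9, 16 and 14 CPM and was higher in every pair without passing the test (adjusted p = 0.0917 with the block, edgeR).

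In the LXR arm, 2 of the 3 genes were higher with the block, against 11.4% of all genes. NR1H2, the gene of LXR beta, was at 64.6, 55.6 and 58.8 CPM under control siRNA and 81.5, 64.7 and 60.4 CPM under INO80 siRNA (adjusted p = 0.00683 with the block, 0.427 without it, edgeR), and its call was lost without pair 1 (adjusted p = 0.0677, edgeR) and in DESeq2 with the block (0.0896). MYLIP, a ubiquitin ligase that LXR raises and that removes lipoprotein receptors (ENSG00000007944, chromosome 6, 16129356 to 16148479, plus strand, GRCh37), was at 5.25, 1.42 and 3.93 CPM and 7.26, 3.93 and 3.96 CPM. Its counts ran from 29 to 146 per library, the pair differences were 0.47, 1.47 and 0.01, and the adjusted p was 0.0353 with the block and 0.609 without it (edgeR), with control library 2 the lowest of all. Without pair 2 its log2 fold change was 0.26 and the call was lost (adjusted p = 0.402, edgeR), and DESeq2 with the block did not call it (adjusted p = 0.189). ABCA1, which exports cholesterol and is a classic LXR target, was at 394, 269 and 289 CPM and 368, 280.3 and 288 CPM. Its groups overlapped almost fully with a log2 fold change of -0.02 and a standard error of 0.0357 (adjusted p = 0.806 with the block, edgeR).

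**Figure D3:**
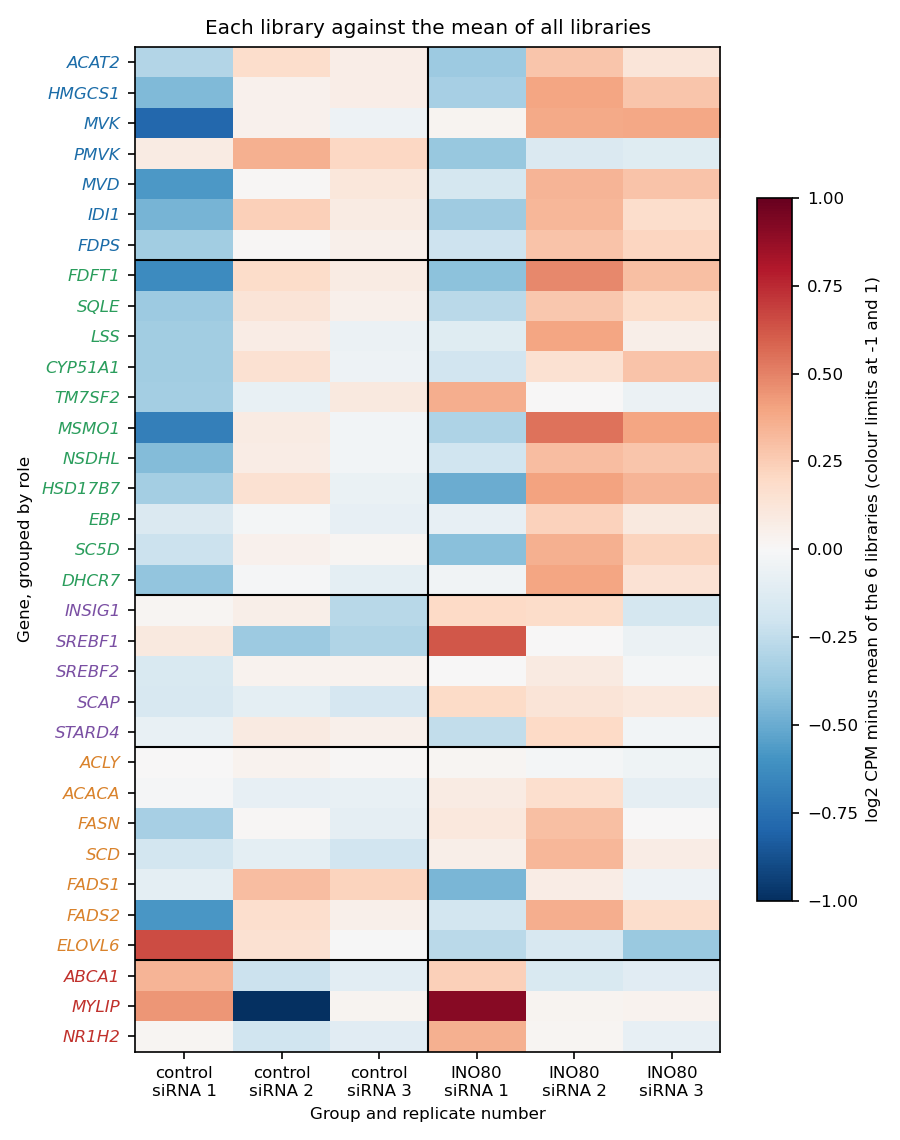
Log2 CPM of each of the 33 genes in each of the 6 libraries, minus the mean of the 6, with genes grouped by role and colour limits at -1 and 1 (MYLIP in control siRNA library 2 lies beyond them). Library 1 is blue for most enzymes of cholesterol synthesis under control siRNA and, more weakly, under INO80 siRNA, while SREBF1, MYLIP and NR1H2 are at their reddest in INO80 siRNA library 1.

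The libraries numbered 1 stood apart for these genes in a graded way. Library 1 was the lowest of its group in both groups for 20 of the 33 genes, where this held for 24.7% of all genes tested, and the 20 include each of the 18 enzymes from acetyl-CoA to cholesterol except TM7SF2. It was the highest in both groups for 4 genes, SREBF1, ABCA1, MYLIP and NR1H2, where this held for 24.1% of all genes. FDFT1 in library 1 was at 0.589 times the geometric mean of libraries 2 and 3 under control siRNA and at 0.576 times under INO80 siRNA. MSMO1 was at 0.611 and 0.583 times, and IDI1 at 0.649 and 0.654 times. On the other side ABCA1 was at 1.41 and 1.30 times and SREBF1 at 1.34 and 1.57 times. For 14 of the 18 enzymes the difference between library 1 and the others was, in both groups, larger than the log2 fold change between the groups without the block. This was not counted over all genes.

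Between the groups, the log2 difference of library 1 from the mean of libraries 2 and 3 correlated across the 33 genes. Pearson r was 0.825, a description over genes that share libraries and are not independent. Over all 15343 genes tested, deviations of the libraries numbered 1 from their group means had an r of 0.581. The log2 difference of library 1 was negative in both groups for 23 genes and positive in both for 6, counts not made over all genes. Its median was -0.34 under control siRNA and -0.33 under INO80 siRNA over the 33 genes. The median was -0.49 in both groups for the enzymes up to farnesyl diphosphate, -0.38 and -0.49 for those from squalene on, and 0.50 and 0.38 for the LXR arm. Over all genes tested it was 0.00 under control siRNA and -0.00 under INO80 siRNA. Library 1 also had the lowest total count and the lowest TMM factor of each group, 0.976 and 0.973, and the part of depth in this pattern was not tested. Without both libraries numbered 1, the fit with the block on the other 2 pairs called 23 of the 33 genes, 20 higher and 3 lower, against 25.4% of all genes tested. With all libraries it called 21. HSD17B7, SC5D and ACACA were gained and NR1H2 was lost. The part of library 1 in the calls was not tested. The look at library 1 was chosen after the values were seen.

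**Figure D4:**
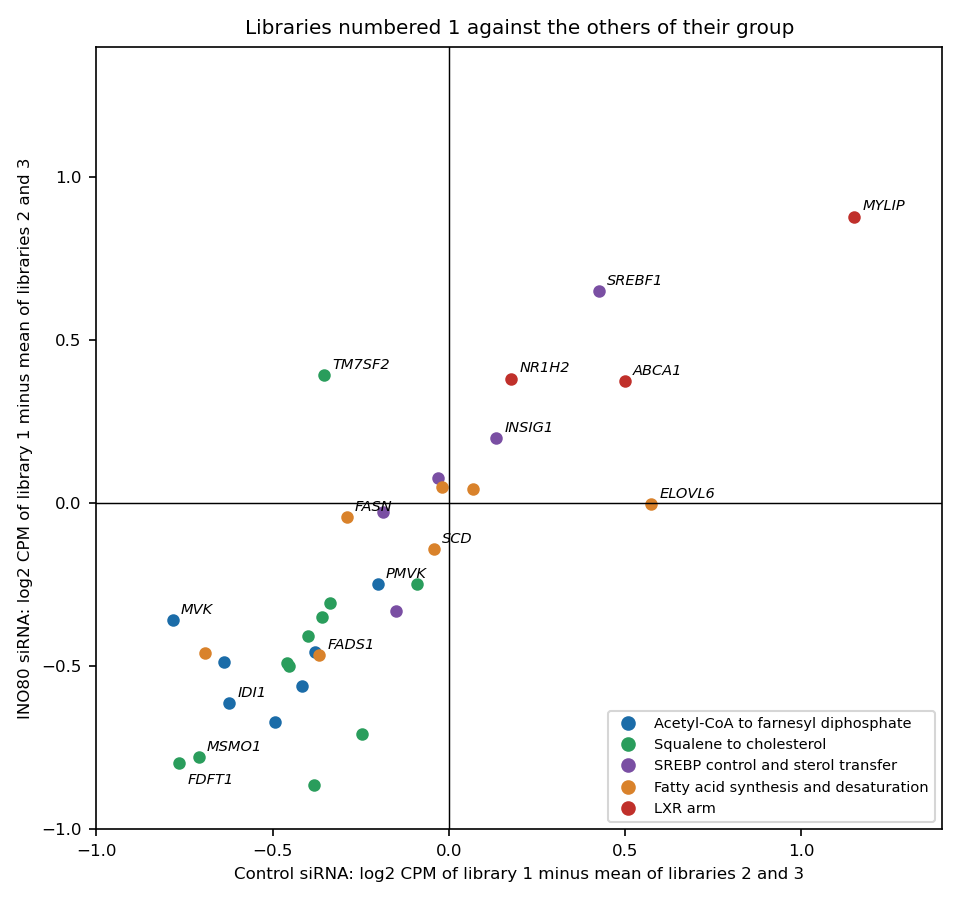
Log2 CPM of library 1 minus the mean of libraries 2 and 3 for each of the 33 genes, under control siRNA (x axis) and INO80 siRNA (y axis), coloured by role. FDFT1, MSMO1 and IDI1 lie at the lower left and MYLIP, SREBF1 and ABCA1 at the upper right, with 23 genes negative and 6 positive in both groups.

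Promoter sequences were read for what the genes share beyond their names. SREBP acts with the factors NF-Y, which binds CCAAT, and SP1, which binds GC boxes. RefSeq windows from 250 bases before to 50 bases after the start of each gene (GRCh38.p14) were found for 29 of the 33 genes and not for ACAT2, FDFT1, SQLE and FASN. On both strands, CCAAT was present in 18 of the 29 windows and in 35.7% of the 27305 windows of all genes. The GC box GGGCGG was present in 27 of 29, against 44.6% of all windows, and the E-box CACGTG in 5 of 29, against 7.43%. The sterol response element, searched as TCACNCCAC or TCANCCCAC, was present in 1 of 29, the window of SREBF2, and in 1.99% of all windows. A sterol response element and CCAAT together were present in 0.681% of all windows. A match is a description of letters and not a measured site. Only exact matches in 1 window per gene were counted. Sterol response elements with other letters or outside the windows would be missed, so a window without a match does not show that a gene lacks one.

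The stretches below run from 170 to 26 bases before the gene start, 5′ to 3′ on the strand of the gene, with CCAAT (or ATTGG, its reverse complement) and the sterol response element in capitals. SREBF2 (chr22:41832935-41833079, plus strand) is shown as the window with the sterol response element, whose RNA was not shown to change. HMGCS1 (chr5:43313438-43313582, minus strand), MVK (chr12:109573624-109573768, plus strand), MSMO1 (chr4:165327499-165327643, plus strand) and DHCR7 (chr11:71448419-71448563, minus strand) are shown as genes called higher in each of the 7 fits with the block.
SREBF2: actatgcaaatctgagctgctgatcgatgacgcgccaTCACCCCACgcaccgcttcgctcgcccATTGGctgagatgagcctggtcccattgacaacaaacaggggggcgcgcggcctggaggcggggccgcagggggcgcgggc
HMGCS1: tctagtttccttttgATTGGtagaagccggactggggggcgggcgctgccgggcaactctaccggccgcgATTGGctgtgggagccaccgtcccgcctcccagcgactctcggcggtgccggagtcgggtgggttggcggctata
MVK: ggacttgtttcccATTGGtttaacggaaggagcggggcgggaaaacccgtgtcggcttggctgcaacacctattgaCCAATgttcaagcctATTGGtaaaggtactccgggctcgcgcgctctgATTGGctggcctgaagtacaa
MSMO1: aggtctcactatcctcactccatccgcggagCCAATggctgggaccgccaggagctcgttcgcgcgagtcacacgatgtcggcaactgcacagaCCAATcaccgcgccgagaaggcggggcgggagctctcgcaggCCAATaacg
DHCR7: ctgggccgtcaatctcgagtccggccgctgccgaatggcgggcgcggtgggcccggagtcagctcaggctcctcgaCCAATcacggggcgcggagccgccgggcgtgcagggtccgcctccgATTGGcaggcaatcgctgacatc
In the SREBF2 window the element TCACCCCAC begins 133 bases before the start and is followed by an ATTGG 106 bases before the start. In the full windows, MVK holds 5 matches to CCAAT on either strand and MSMO1 holds 4, while HMGCS1 and DHCR7 hold 2 each. PMVK and FADS1, which were lower, hold a GC box and no CCAAT in their windows, and so does ELOVL6, but SREBF1 and SCAP, which were higher, hold no CCAAT either.

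The wider pathway was followed in a list of 33 further genes of sterol sensing, transport and lipid supply. ABCG1 had 0 counts in every library, which allows up to 3 counts, and the other 32 were tested. Without the block 0 of the 32 were called (edgeR), against 1.75% of all genes. An unadjusted p under 0.05 was reached by 6 of the 32, a share near the 16.4% of all genes, and the 3 with the smallest p were MBTPS2, NFYB and ACSL3. MBTPS2, the second protease that releases SREBP, was at 61.2, 60.5 and 65.6 CPM under control siRNA and 44.9, 52.5 and 52.3 CPM under INO80 siRNA. Its groups did not overlap (log2 fold change -0.32, adjusted p = 5.29e-05 with the block, 0.0907 without it, edgeR). NFYB, a subunit of the CCAAT-binding factor NF-Y, was at 25.9, 24.6 and 25.7 CPM and 19.3, 20.4 and 21.5 CPM, also without overlap (log2 fold change -0.31, adjusted p = 0.00201 with the block, 0.103 without it, edgeR). ACSL3, an acyl-CoA synthetase, was at 146, 152 and 144 CPM and 165, 179 and 169.5 CPM (log2 fold change 0.21, adjusted p = 1.37e-04 with the block, 0.115 without it, edgeR).

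With the block, 9 of the 32 were higher and 4 were lower, shares to be set against the 11.4% and 13.4% of all genes. The higher ones included MBTPS1, the first SREBP protease, the lysosomal cholesterol carrier NPC2, TMEM97, ME1, ACSL3, C14orf1, LPCAT3 and ABCA7. The lower ones were MBTPS2, NFYB, ACSS2, which makes acetyl-CoA from acetate, and LBR, which has sterol reductase activity like TM7SF2. Their log2 fold changes with the block lay between -0.32 and 0.25, and the median of the list without the block was 0.09, below that of the 33 main genes. Of the proteases, MBTPS1 at 0.10 and MBTPS2 at -0.32 thus had opposite signs on the log2 scale.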

How the data were processed

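RNA-seq was measured in 6 libraries of HK-2 cells, 3 with control siRNA and 3 with INO80 siRNA for 48 h. Poly-A RNA was prepared with a directional kit and sequenced in pairs. The authors deposited a table with the raw read count of each gene in each library, which holds no normalization, and the FPKM. The deposited FPKM values equalled values recomputed from the counts, the exonic lengths and the library totals for 347430 of 347430 values, to 2 decimals. The submitters' processing notes name HISAT2 2.0.1, HTSeq and hg19, whereas the study's methods name ELAND and hg38. The coordinates in the table are GRCh37, and the strand setting of the counting is not given in the sources used here.

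Counts were fitted over the whole table with edgeR 4.0.16 in R 4.3.3 (filterByExpr, TMM, glmQLFit and glmQLFTest, treatment alone), and p-values were adjusted over 15343 genes by Benjamini and Hochberg. A gene was called with an adjusted p under 0.05 and no limit on the fold change. Normalised CPM is the count relative to the TMM-scaled library total. Total counts of 16829273 to 23784599 per library set the precision for low genes. Deviations from the group mean of same-numbered libraries correlated by 0.581, 0.365 and 0.360 across genes in pairs 1, 2 and 3. Other combinations were at -0.397 to 0.152. Deviations cancel out within a group, so these correlations depend on each other. Between libraries 2 and 3 the crosswise correlations were 0.129 and 0.152, below the 0.365 and 0.360 of the same numbers. The labels' numbers were taken to pair the libraries and the replicate block was fitted as an alternative. Other alternatives were DESeq2 1.42.0, limma 3.58.1 on log2(FPKM + 0.1) and log2(FPKM + 1) for genes whose mean FPKM reached 0.1, other scalings, no filter on low counts, and libraries or pairs left out in turn. Fits with the block under DESeq2 or other scalings were added after the data were seen. On simulated data with 200 changed genes among 15343, the edgeR and other fits of this comparison recovered at least 197, with at most 14 false calls. The changed genes were well counted and were raised or lowered 2-fold, more than any of the 33 genes changed. Fits without the block were run only on simulated data without a pair effect. Recovery of changes as small as those reported here was not tested. Promoter windows and motifs came from RefSeq. Summaries and figures used Python 3.11.15, pandas 2.3.3, numpy 2.4.6, scipy 1.17.1 and matplotlib 3.10.9.

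The 33 genes, the wider list and the marker lists were chosen with earlier results of these data known. All 33 genes are reported, with values in every library for genes called in either fit, for the 5 with the largest change and for the control genes, and the wider list is named by calls or, with none, by its 3 smallest p-values. Results for some genes are not reported here.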

Additional observations from a re-analysis of the deposited data

How the results depend on the processing

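Without the replicate block, median-ratio or total-count scaling left the members called at 0, and so did limma. No filter on low counts gave 192 genes higher and 516 lower, with 7 members higher and 2 lower. DESeq2 gave 129 and 481, with 2 and 2 members. limma on log2(FPKM + 0.1) gave 15 genes higher and 67 lower, and on log2(FPKM + 1) 7 and 53, with a median log2 fold change of 0.17 from squalene on. The replicate block gave 1748 genes higher and 2050 lower, with 18 members higher and 3 lower, and changed no other call of the 33 genes over all 6 libraries. Leaving out pair 1, 2 or 3 under the block gave 1776, 1116 and 954 genes higher and 2202, 1507 and 1297 lower, with 20, 15 and 17 members higher and 3 lower each time, and the median from squalene on was 0.25 without pair 1 and 0.24 without pair 3. Under the block, DESeq2 gave 627 and 1064 genes (15 and 3 members), median-ratio scaling 1723 and 2108 (18 and 3), and total-count scaling 2069 and 1998 (19 and 3).

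Leaving out single libraries without the block gave 0 to 12 genes higher and 18 to 134 lower and called 0 of the 33 genes, with fewer libraries in each fit. The median log2 fold change then ranged from 0.088 to 0.27 over the 33 genes, 0.081 to 0.33 up to farnesyl diphosphate, 0.091 to 0.34 from squalene on and 0.074 to 0.25 for SREBP control. Signs turned for 7 genes, none of them called without the block, with log2 fold changes from -0.095 to 0.21 for ACAT2, -0.079 to 0.27 for IDI1, -0.0097 to 0.27 for SQLE, -0.0097 to 0.080 for SREBF2, -0.15 to 0.066 for STARD4, -0.016 to 0.33 for SC5D and -0.16 to 0.16 for ABCA1. Under the block without pair 1, TM7SF2 was at -0.045, SREBF2 at -0.0042, STARD4 at 0.013 and ABCA1 at 0.023, and without pair 2, ACAT2 was at -0.0045. The cause was not tested. The precision for genes of few counts, such as TM7SF2 and MYLIP, is limited by depth.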
